A study of Mus musculus with 6 samples.

Results

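Prostaglandins are made, bound and removed by a small set of gene products, and 10 of them were followed here by symbol among the 33696 genes of the count tables: the synthesis genes Ptgs1, Ptgs2, Ptges and Ptgis, the breakdown enzyme Hpgd, the carrier Slco2a1, and the 4 receptors for prostaglandin E2, Ptger1, Ptger2, Ptger3 and Ptger4. All 10 had UMIs (unique molecular identifiers, each counted as 1 captured mRNA) in the kidneys of both groups. Single-cell RNA-seq had been run on 1 kidney suspension from each of 6 male C57BL/6 mice. They had been purchased at an age of 8 to 10 weeks, before surgery and treatment. The 3 DOCA-salt mice had lost the left kidney, received a subcutaneous pellet of 50 mg deoxycorticosterone acetate (DOCA, a mineralocorticoid) 1 week later and drank 1% NaCl for 21 days. The 3 Sham mice had sham surgery, no pellet and ordinary water, so nephrectomy, hormone and salt cannot be told apart. The tissue had been digested with collagenase II at 37 °C and passed through a 40 µm strainer, and red blood cells had been lysed.

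Cyclooxygenases, encoded by Ptgs1 and Ptgs2, turn arachidonic acid into prostaglandin H2, from which Ptges makes prostaglandin E2 and Ptgis makes prostacyclin. Prostaglandin E2 acts on the receptors EP1 to EP4, encoded by Ptger1 to Ptger4, is carried into cells by the product of Slco2a1 and is inactivated there by 15-hydroxyprostaglandin dehydrogenase, encoded by Hpgd. In the kidney this lipid is known for its actions on salt and water transport along the distal nephron and collecting duct, on renin release near the macula densa, and on the tone of renal vessels.

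A total of 55630 cells were kept, 7701 to 9933 per mouse, with 65059932 to 103168914 UMIs per mouse. Clusters were named from marker genes, and the 10 genes were kept out of the genes that made the clusters. This gave 20 cell types, and 6769 cells (12.2%) in 5 clusters stayed unnamed. Median UMIs per cell ran from 4779 to 9117 and the median mitochondrial share from 15.5% to 25.7%, with Sham replicate 3 lowest in the first and highest in the second. Levels below are CPM, the UMIs of a gene per 1000000 UMIs of that cell type in that mouse. CPM of different genes depends on how well each mRNA is captured, so levels are compared across cells and mice and not between genes. The libraries shared 33 to 69 barcodes pair by pair, at most 0.525% of the smaller library.

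Promoters of 8 of the 10 genes were found in RefSeq (GRCm38.p6), each taken as 250 bases before to 50 bases after the start of the gene. The 3 printed here belong to the synthesis genes whose levels in single cell types the results turn on. All were searched on both strands for 4 sets of letters: AGAACA, a core sequence of steroid response elements, which the mineralocorticoid receptor also binds; its palindrome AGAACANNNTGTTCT, which contains it; TGACG, the core of a cAMP response element; and the E-box CACGTG. Capitals mark a match on either strand, and in Ptgs2 the last 2 of these overlap. Each is read 5′ to 3′ on the strand of the gene.
Ptgs1, chr2:36230176-36230475, plus strand: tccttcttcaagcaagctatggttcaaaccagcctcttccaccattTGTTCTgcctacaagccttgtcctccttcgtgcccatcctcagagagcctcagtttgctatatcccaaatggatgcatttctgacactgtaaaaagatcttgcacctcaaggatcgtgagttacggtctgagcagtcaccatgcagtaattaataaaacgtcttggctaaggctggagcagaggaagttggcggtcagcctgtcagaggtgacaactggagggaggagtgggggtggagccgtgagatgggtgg
Ptges, chr2:30903248-30903547, minus strand: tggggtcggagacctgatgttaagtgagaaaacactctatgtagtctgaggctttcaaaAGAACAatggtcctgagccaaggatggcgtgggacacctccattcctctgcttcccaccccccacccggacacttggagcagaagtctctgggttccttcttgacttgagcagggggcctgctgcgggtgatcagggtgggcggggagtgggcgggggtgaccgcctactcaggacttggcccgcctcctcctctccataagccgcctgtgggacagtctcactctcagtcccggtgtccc
Ptgs2, chr1:150099781-150100080, plus strand: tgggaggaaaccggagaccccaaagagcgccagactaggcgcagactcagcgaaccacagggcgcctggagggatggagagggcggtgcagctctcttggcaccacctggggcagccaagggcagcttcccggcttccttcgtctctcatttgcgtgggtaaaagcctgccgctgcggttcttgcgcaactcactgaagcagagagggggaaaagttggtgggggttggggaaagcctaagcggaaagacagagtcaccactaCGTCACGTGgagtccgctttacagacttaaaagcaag
AGAACA was in 3 of the 8 promoters (Ptgs1, Ptges and Ptger2), against 19.0% of all 32851 promoters of that length. TGACG and CACGTG were each in 1 of 8, that of Ptgs2, against 20.8% and 7.15% of all promoters. The palindrome was in none of the 8 and in 0.00913% of all. These matches describe letters in a window of 300 bases and were not tested for binding.

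On the assembly used for counting, GRCm39, the genes lie on 7 chromosomes. The synthesis genes Ptgs1 (chr2:36120438-36142287) and Ptges (chr2:30779483-30820196) lie on the same chromosome as Ptgis (chr2:167033725-167083018), and Ptgs2 lies at chr1:149975194-149983978. Hpgd (chr8:56747543-56774082) and Ptger1 (chr8:84393264-84399384) share chromosome 8. The other 4 genes are Ptger2 (chr14:45225652-45241277), Ptger3 (chr3:157272492-157352099), Ptger4 (chr15:5236142-5273673) and Slco2a1 (chr9:102865911-102973201). Whether the counting separated strands is not given in the sources used here, so reads from genes that overlap on the other strand may not be told apart, and values of Ptgs2os beside Ptgs2 and of Ttc33 beside Ptger4 are given below.

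The levels of these genes differed widely between cell types in Sham kidneys, where fibroblasts and urothelial cells were too few to rank. Ptgs1 was highest in principal cells of the collecting duct (212 ± 37.1 CPM, mean ± SD, n = 3 mice), followed by connecting tubule (138 ± 17.5), distal convoluted tubule (51.3 ± 3.50) and endothelial cells (45.8 ± 7.17), and these last 2 did not differ beyond their spread. In proximal tubule it was 0.700 ± 0.350 CPM. Ptges followed the same stretch of nephron, with 186 ± 23.5 CPM in connecting tubule, 127 ± 28.6 in principal cells and 33.6 ± 10.8 in intercalated cells. Enzyme and synthase were thus both high in connecting tubule and principal cells.

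Ptgs2, the inducible cyclooxygenase, was rare, with 234 UMIs over all cells of the 3 Sham kidneys. Its level was 52.3 ± 26.7 CPM in dendritic cells, 25.8 ± 35.4 in monocytes (6 UMIs from 49 cells), 10.3 ± 9.41 in macrophages and 6.92 ± 2.16 in endothelial cells, and these last 3 overlapped. Neutrophils reached 152 CPM in 1 of the 2 Sham mice with at least 10 such cells and 0 in the other. Ptgis was a gene of smooth muscle cells and pericytes (166 ± 29.6 CPM) and of the parietal epithelium of the glomerulus (68.0 ± 13.1), and it was at or under 2.72 CPM in all other types but fibroblasts.

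The breakdown enzyme Hpgd was highest in macrophages (212 ± 30.7 CPM) and endothelial cells (164 ± 75.7), which did not differ beyond their spread. The carrier Slco2a1 was high in endothelial cells (186 ± 49.8), thin limb (148 ± 12.9), smooth muscle cells and pericytes (124 ± 24.9) and parietal epithelium (114 ± 25.6), and neighbors in that order overlapped. Within the endothelium the 2 genes were highest in different clusters, as described below.

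Among the receptors, Ptger1 was high in principal cells (140 ± 39.1 CPM) and connecting tubule (27.0 ± 8.72), and Ptger3 in thick ascending limb (431 ± 43.5) and intercalated cells (162 ± 22.2). Ptger4 was spread more widely, with 341 ± 57.9 CPM in macrophages, 229 ± 38.6 in dendritic cells, 137 ± 27.3 in T or NK cells, 127 ± 35.8 in monocytes (29 UMIs) and 83.7 ± 0.427 in thin limb. Ptger2 had the fewest counts, 78 UMIs in all, of which 57.7% came from thin limb at 4.37 ± 0.370 CPM, and 8 came from dendritic cells at 8.41 ± 3.56 CPM. The receptors for calcium signaling (EP1), for inhibition of cAMP (EP3) and for its production (EP2 and EP4) therefore had their highest levels in different cells, with EP2 resting on few UMIs.

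**Figure D1:**
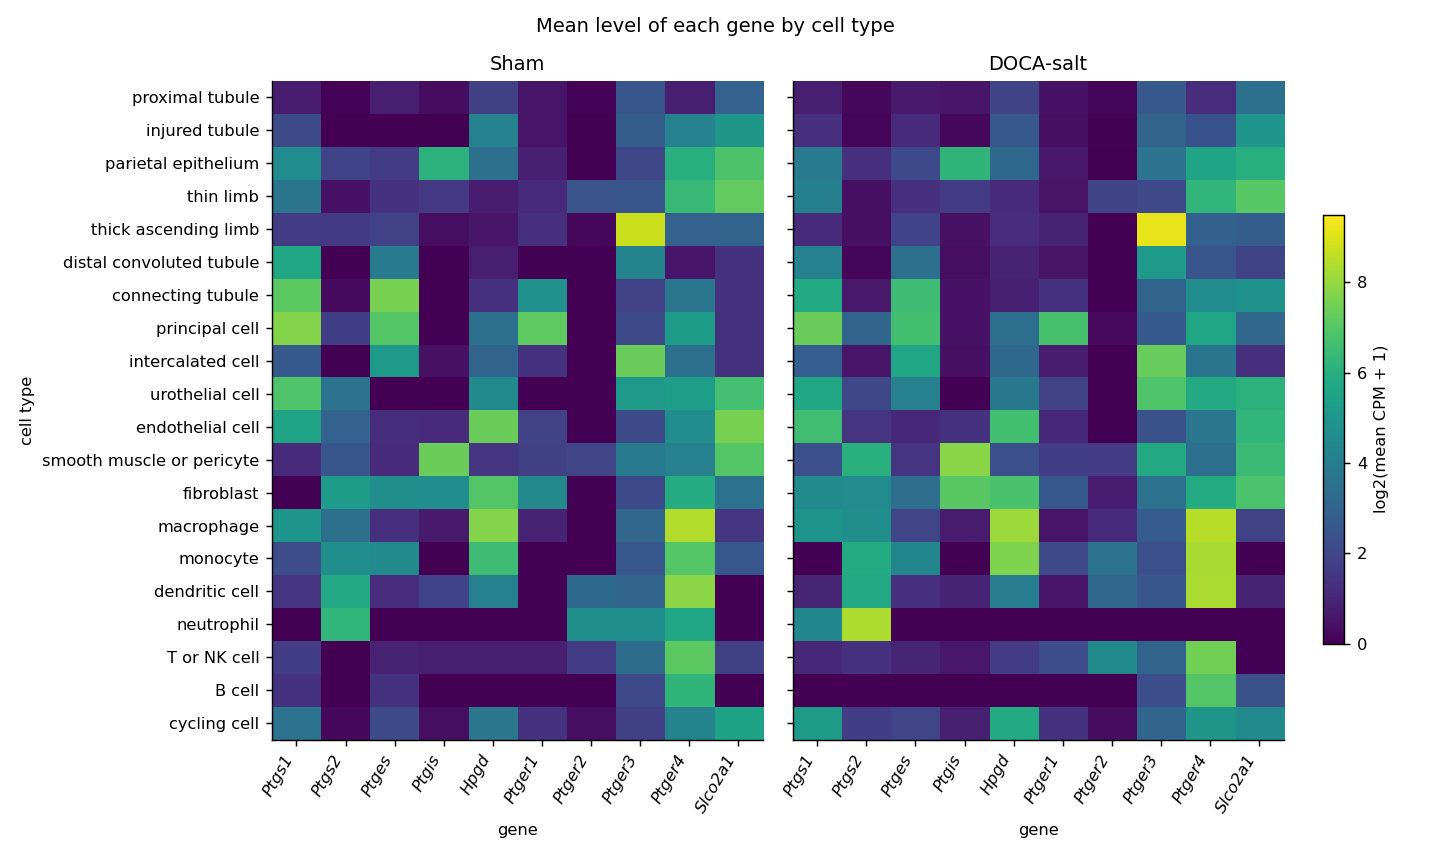
Mean level of each of the 10 genes in each named cell type, in Sham and DOCA-salt kidneys (color gives log2 of the mean CPM over mice plus 1). Ptgs1 and Ptges stand out in connecting tubule and principal cells, Ptger3 in thick ascending limb (431 CPM in Sham mice), and Ptgis in smooth muscle cells and pericytes.

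The genes whose levels ran most like each of these across 19 cell types in both groups (38 points, log2(CPM + 1), 17041 genes) were compared by Pearson correlation as a description, since the points share mice and depth. Ptger1 ran most like Spock3 (r = 0.878), Ache (0.865) and Aqp2 (0.835), the water channel of principal cells. Ptgis ran most like Foxs1 (0.943), Lmod1 (0.938) and Fxyd1 (0.933), and Ptges like Slc9a4 (0.887), Gm26688 (0.885) and A930017K11Rik (0.845). For Slco2a1 the 3 were Prickle2 (0.913), Mpdz and P4ha2 (both 0.905), for Hpgd Cmklr1 (0.883), Sdc3 (0.831) and Phf11d (0.830), and for Ptgs2 Slc11a1 (0.881), Ccrl2 and Gab2 (both 0.825).

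Ptger4, high in lymphoid and myeloid cells, ran most like the ribosomal protein genes Rps12 (0.861), Rpl17 (0.848) and Rps29 (0.840). The correlations were lower for Ptger3, led by Gm11789 (0.788), Rtl4 (0.784) and Slc2a4 (0.773), for Ptger2, led by Gm11110 (0.762), Uimc1 (0.707) and Tnfsf14 (0.704), and for Ptgs1, led by Fam171a2 (0.749), Gper1 (0.734) and Lypd6 (0.731).

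The first comparison asked whether the whole kidney suspension differed between DOCA-salt and Sham mice, with all kept cells of a mouse summed. Ptgs2, Ptgis and Ptger4 rose and Ptger1 fell. Of the 10 genes, all of which passed the filter on low counts, 3 were called higher at an adjusted p under 0.05 (edgeR quasi-likelihood F test), where 11.5% of all 19665 genes tested were higher, and 1 was called lower, where 5.69% were lower. The median log2 change of the 10 was 0.20, against -0.03 over all genes. In such sums fewer cells of a type and less RNA per cell cannot be told apart. All 4 red blood cell genes of the list, hemoglobin genes, were called higher in the same sums (median log2 3.01), from 0.598 to 2.84 CPM in all in the Sham mice to 11.3 to 14.6 CPM in the DOCA-salt mice, and their part in the results was not tested.

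Ptgs2 was 1.01, 1.03 and 1.12 CPM in the Sham mice and 2.95, 3.29 and 3.92 CPM in the DOCA-salt mice. The groups did not overlap, and the change was 2.95-fold (log2 1.56 ± 0.17 SE, adjusted p = 0.00113), from 234 UMIs against 888. Ptgs2os, a transcript from the other strand, had 11 UMIs against 42.

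Ptgis, the prostacyclin synthase, was 2.44, 2.09 and 2.81 CPM in the Sham mice and 6.71, 9.20 and 9.43 CPM in the DOCA-salt mice. All 3 treated mice were above all 3 controls (3.17-fold, log2 1.66 ± 0.18 SE, adjusted p = 0.00121).

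Ptger4, the EP4 receptor, was 12.6, 15.3 and 15.3 CPM in the Sham mice and 21.5, 27.5 and 35.7 CPM in the DOCA-salt mice (1.80-fold, log2 0.85 ± 0.17 SE, adjusted p = 0.0135). Without Sham replicate 1 its adjusted p was 0.0592. Ttc33 on the other strand was 24.8 to 29.1 CPM in the Sham and 22.0 to 23.8 CPM in the DOCA-salt mice.

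Ptger1, the EP1 receptor, was 6.61, 5.15 and 5.46 CPM in the Sham mice and 2.99, 3.69 and 2.95 CPM in the DOCA-salt mice. The groups did not overlap (1.94-fold lower, log2 -0.96 ± 0.16 SE, adjusted p = 0.00666).

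Of the 6 genes not called, Ptges and Hpgd came closest. Ptges was 10.5, 10.3 and 16.5 CPM in the Sham mice and 8.92, 8.99 and 7.24 CPM in the DOCA-salt mice (log2 -0.69 ± 0.21 SE, adjusted p = 0.0622). Hpgd was 13.8, 7.10 and 15.8 CPM and 20.1, 29.0 and 25.1 CPM (log2 0.89 ± 0.28 SE, adjusted p = 0.0624). Neither pair of groups overlapped, and neither passed the edgeR test, while DESeq2 called both, Ptges lower and Hpgd higher.

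The other 4 had log2 changes between -0.08 and 0.34. Ptgs1 was 15.5 ± 2.90 and 16.4 ± 2.81 CPM (adjusted p = 0.908), Ptger3 44.2 ± 6.37 and 50.0 ± 3.23 (adjusted p = 0.801) and Slco2a1 23.6 ± 3.67 and 24.4 ± 3.21 (adjusted p = 0.760). Ptger2 was 0.341 ± 0.0665 and 0.473 ± 0.0319 CPM, from 78 and 125 UMIs (adjusted p = 0.373). For all but Ptger2 the groups overlapped.

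**Figure D2:**
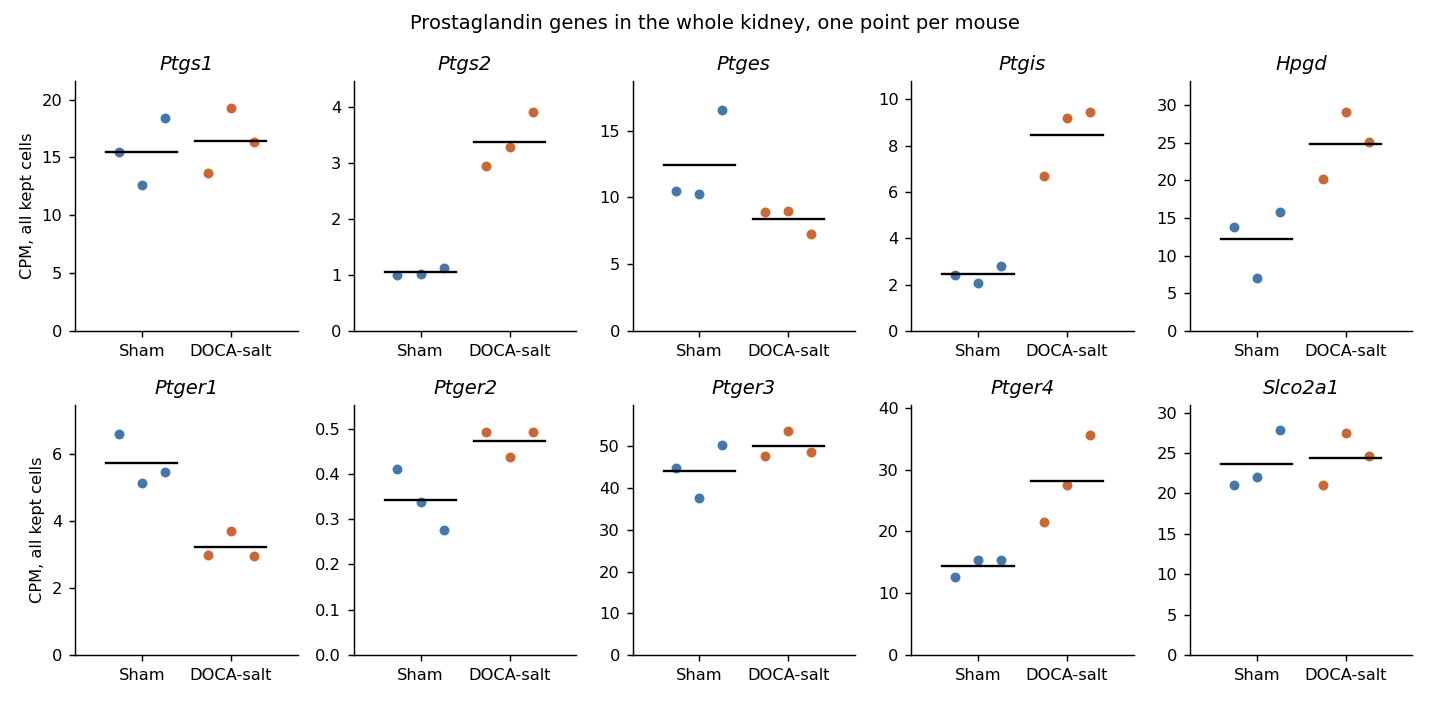
CPM of each gene over all kept cells, 1 point per mouse, with a line at the mean of each group of 3. Ptgs2, Ptgis and Ptger4 lie higher in all DOCA-salt mice and Ptger1 lies lower, while for Ptgs1, Ptger3 and Slco2a1 the groups overlap.

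For several of the genes the cells that supplied the mRNA differed between the groups, as did the makeup of the suspension. Fibroblasts were 0.128 ± 0.094% of cells in the Sham and 2.90 ± 0.405% in the DOCA-salt mice, macrophages went from 1.60% to 6.55% and injured tubule cells from 0.435% to 3.45%. Connecting tubule cells went from 1.94% to 1.03% and principal cells from 2.52% to 1.58%. Shares of cells also depend on how the tissue came apart in digestion, which was not tested.

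For Ptgis, fibroblasts held 60.6% of the UMIs in the DOCA-salt mice, and smooth muscle cells and pericytes went from 50.8% to 17.9%. For Ptgs2, the DOCA-salt UMIs came from fibroblasts (26.6%, 20% to 31.9% by mouse), macrophages (25.1%, 23.9% to 26.9%), smooth muscle cells and pericytes (13.1%, 6.19% to 27.0%) and dendritic cells (12.5%), whereas in the Sham mice endothelial cells (28.2%) and dendritic cells (21.4%) led. For Ptger4 the thin limb share went from 26.9% to 8.17% and the macrophage share from 19.0% to 44.6%. A share can fall because other cells add UMIs. Ptger4 was not called within thin limb (edgeR adjusted p = 0.759) or macrophages (0.989).

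For Hpgd the endothelial share fell and the macrophage share rose. Its change within endothelial cells (edgeR adjusted p = 0.260) and within macrophages (0.309) was not called. Endothelial cells held 60.1% of its UMIs in the Sham and 24.9% in the DOCA-salt mice, macrophages 13.9% and 38.0%, and fibroblasts 17.1% in the DOCA-salt mice. Ptgs1 went the other way, with the endothelial share going from 13.1% to 37.0% and the principal cell share from 38.4% to 20.5%. By contrast, the shares of Ptger1 from principal cells (67.8% and 68.1%) and of Ptger3 from thick ascending limb (67.8% and 68.3%) were nearly equal in both groups.

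**Figure D3:**
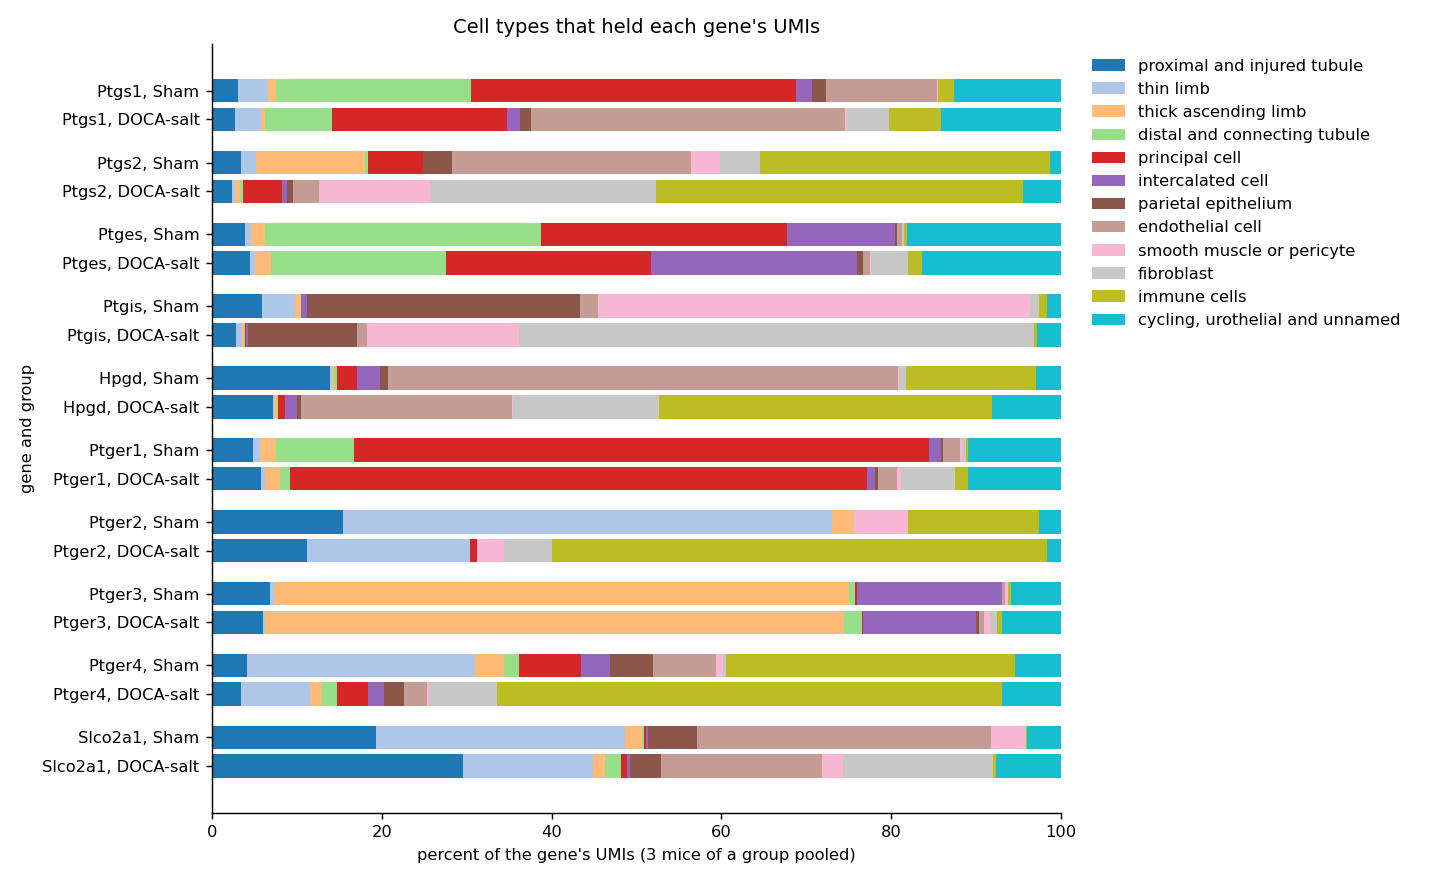
Percent of the UMIs of each gene that came from each cell type, pooled over the 3 mice of a group. In DOCA-salt mice fibroblasts supply 60.6% of Ptgis and immune cells, shown together, the largest part of Ptger4, and for Ptger1 and Ptger3 the main source is the same in both groups.

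When fibroblasts and immune cells were left out of the sums, none of the 10 genes was called higher. Ptgs2 then had a log2 change of 0.63 (adjusted p = 0.209), Ptgis 0.47 (adjusted p = 0.112) and Ptger4 -0.04 (adjusted p = 0.871), and Ptger1 was still lower. A second calculation weighted the level in each cell type by that type's share of all UMIs in the other group. This makeup is of UMIs and not of cells, so RNA per cell is part of it. With Sham levels in the DOCA-salt makeup, Ptgs2 came to 3.43 CPM and Ptger4 to 26.5 CPM, where the pooled DOCA-salt values were 3.34 and 27.6 CPM. For Ptgs2 the Sham level in fibroblasts that enters this sum rests on 11 UMIs, all from Sham replicate 1. Ptgis came to 3.50 CPM, where the pooled DOCA-salt value was 8.40 CPM, and its Sham level in fibroblasts rests on 6 UMIs. For Ptger1 that sum was 5.63 CPM, against 5.83 CPM in the pooled Sham and 3.25 CPM in the pooled DOCA-salt mice. Of all UMIs, principal cells held 2.81% in the Sham and 2.09% in the DOCA-salt mice, and connecting tubule 2.02% and 1.51%. The sum also uses Sham levels of types with few Sham cells, such as fibroblasts (0.103% and 3.83%) and injured tubule cells (0.753% and 7.59%). How much of the Ptger1 sum these types supplied was not tested. The reverse weighting set DOCA-salt levels in the Sham makeup. It gave 1.64 CPM for Ptgs2 (pooled Sham 1.05), 15.4 for Ptger4 (14.2), 3.37 for Ptgis (2.44) and 3.75 for Ptger1 (5.83). This is arithmetic on group means with no error attached.

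The second comparison set DOCA-salt against Sham mice within each cell type. Of 20 named types, 19 had enough mice and cells, 17 had at least 1 of the genes past the filter on low counts, and 78 gene-by-type tests were made. There were 16 calls in 7 types, 7 higher and 9 lower, and 9 of the 10 genes had at least 1. Over all genes of the same fits, summed over types, 3.24% of tests were called higher and 2.65% lower (5.9% in all), and this share differed widely between types, as given beside each below. Counts at an unadjusted p under 0.05, given where no gene was called, stand against 4.29% (monocytes) to 35.2% (connecting tubule) of all genes in a type. The gene without a call was Ptger2, which passed the filter in thin limb and in no other type. Some called genes passed the filter only through the group where they were high. Among the higher calls these were Slco2a1 in connecting tubule, Ptgs2 in smooth muscle cells and pericytes, and Ptgis and Slco2a1 in fibroblasts. Among the lower calls Ptger1 in connecting tubule passed it only through the Sham mice. The number of calls is therefore a description and not a test of the genes as a set. The change was also compared directly between 15 pairs of 6 of the types, where 24 of 125 tests of these genes passed the threshold and 6.39% of the tests of all genes did. In those fits a gene could be under the filter on low counts in a type by itself.

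The connecting tubule, the segment between distal convoluted tubule and collecting duct, held the largest number of calls together with the endothelium. Ptgs1, Ptges and Ptger1 fell and Slco2a1 rose there, so 4 of the 5 genes tested were called. Of all 9934 genes tested in this type, 12.1% were called higher and 12.2% lower.

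Ptgs1 in connecting tubule was 158, 127 and 128 CPM in the Sham mice and 47.8, 57.7 and 60.4 CPM in the DOCA-salt mice. The groups were far apart (2.86-fold lower, log2 -1.52 ± 0.17 SE, adjusted p = 2.42e-05). Ptges, the next enzyme toward prostaglandin E2, was 200, 159 and 199 CPM and 92.1, 125 and 59.2 CPM (2.25-fold lower, log2 -1.17 ± 0.22 SE, adjusted p = 0.00156). Both enzymes were lower in every DOCA-salt mouse than in any Sham mouse.

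Ptger1 in connecting tubule was 35.9, 26.6 and 18.5 CPM in the Sham mice and 2.39, 1.34 and 1.18 CPM in the DOCA-salt mice, from 119 against 7 UMIs. It was 16.7-fold lower (log2 -4.06 ± 0.44 SE, adjusted p = 1.54e-05). The level left in the DOCA-salt mice was of the order seen in types that held hardly any of this mRNA, such as endothelial cells (1.13 ± 0.0725 CPM).

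Slco2a1, the prostaglandin carrier, was 1.5, 1.33 and 1.79 CPM in connecting tubule of the Sham mice and 13.2, 32.2 and 40.3 CPM in the DOCA-salt mice, from 7 against 104 UMIs. All 3 DOCA-salt mice were higher, with DOCA-salt replicate 1 the lowest of them (14.8-fold, log2 3.88 ± 0.54 SE, adjusted p = 0.000124). With 7 UMIs in the Sham mice, Slco2a1 passed the filter on low counts only through the DOCA-salt mice. Ptger4, the remaining gene tested, was 12.4 ± 3.25 and 24.2 ± 3.89 CPM and was not called (log2 0.74, adjusted p = 0.0707).

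The markers of the type moved in the same cells. Summed over the list, 11 connecting tubule markers ran from 44852 to 59344 CPM in the Sham and from 29688 to 35032 CPM in the DOCA-salt mice, and 24 principal cell markers from 9359 to 12006 and from 5637 to 6120 CPM. The sum of 12 injured tubule markers ran from 53.8 to 69.6 and from 1049 to 1570 CPM, and that of 16 thin limb markers from 234 to 299 and from 707 to 975 CPM. Of 17 immediate early and dissociation genes, which respond to tissue handling, 3 were higher and 6 lower here (median log2 -0.29). The part of these shifts in the 4 calls was not tested.

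In distal convoluted tubule, the segment upstream, Ptgs1 fell as well. It was 48.6, 50.1 and 55.2 CPM in the Sham mice and 19.8, 17.1 and 15.4 CPM in the DOCA-salt mice (3.21-fold lower, log2 -1.68 ± 0.20 SE, adjusted p = 1.35e-05). It was 1 of 3 genes tested in this type, where 2.71% of all genes were lower and 4.43% higher. Ptges was 13.7 ± 6.07 and 10.2 ± 2.61 CPM (adjusted p = 0.327) and Ptger3 18.2 ± 4.12 and 33.5 ± 6.47 CPM (adjusted p = 0.0904). Of the 16 immediate early and dissociation genes tested here 8 were higher, Atf3 and Egr1 among them, and 2 lower (median log2 0.61). Their sum was 5050 to 5509 CPM in the Sham and 7419 to 11465 CPM in the DOCA-salt mice, and its part in the Ptgs1 call was not tested.

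Principal cells, downstream, had none of 5 genes called, where 4.5% of all genes were higher and 3.55% lower (1 at an unadjusted p under 0.05 in edgeR, Ptger4, and 0 in DESeq2). Ptgs1 was 232, 169 and 235 CPM in the Sham mice and 161, 196 and 128 CPM in the DOCA-salt mice (adjusted p = 0.291), and the groups overlapped. Ptger1 was 186, 118 and 118 CPM and 113, 121 and 83.2 CPM (adjusted p = 0.304), also with overlap. Whether the changes in connecting tubule and in principal cells differ from each other was not tested. Slco2a1 was under the filter on low counts in principal cells, so whether it rose there was not tested. Its rise in connecting tubule is thus not shown to be particular to that segment. Ptges was 127 ± 28.6 and 97.6 ± 17.6 CPM (adjusted p = 0.330) and Ptger4 37.0 ± 7.12 and 48.1 ± 3.86 CPM (adjusted p = 0.182).

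The makeup of the principal cells differed between the groups. With finer clustering, a cluster led by Mgat4c and Hsd11b2, with the sodium channel genes Scnn1b and Scnn1g, had 96, 122 and 129 cells in the Sham mice and 15, 9 and 8 cells in the DOCA-salt mice. All 5 inner medulla markers of the list were called higher in principal cells (median log2 1.58), and they summed to 1226 to 1598 CPM in the Sham and 2536 to 3988 CPM in the DOCA-salt mice. The part of this shift in the levels of the 5 genes was not tested.

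Intercalated cells, the acid-base cells interspersed in these segments, had none of 5 genes called in the type as a whole, where 1.8% of all genes were higher and 2.05% lower (1 at an unadjusted p under 0.05 in edgeR, Ptges, and 0 in DESeq2). Ptges was 33.6 ± 10.8 and 47.1 ± 5.54 CPM (log2 0.56, adjusted p = 0.167) and Ptger3 162 ± 22.2 and 154 ± 2.81 CPM (adjusted p = 0.987). Of 16 immediate early and dissociation genes 6 were lower and 0 higher in these cells, and their part was not tested. When single clusters were fitted, a step added after the data were seen, Ptges passed the test in both. In the cluster led by Aqp6 and Slc4a1 it was 1.70, 5.63 and 2.94 CPM and 15.5, 14.6 and 6.78 CPM (log2 2.02 ± 0.48 SE, adjusted p = 0.0458), where 0.72% of genes were higher and 0.77% lower. In the cluster led by Lsamp and Slc26a4 it was 43.5, 38.6 and 76.4 CPM and 80.6, 84.6 and 86.2 CPM (log2 0.81 ± 0.23 SE, adjusted p = 0.0465), where 3.45% were higher and 3.5% lower. The direction was opposite to that in connecting tubule, and that difference was not tested. The Lsamp and Slc26a4 cluster was 53.0% to 61.0% of intercalated cells in the Sham and 38.1% to 52.0% in the DOCA-salt mice. The part of this mix in the Ptges level of the whole type was not tested.

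**Figure D4:**
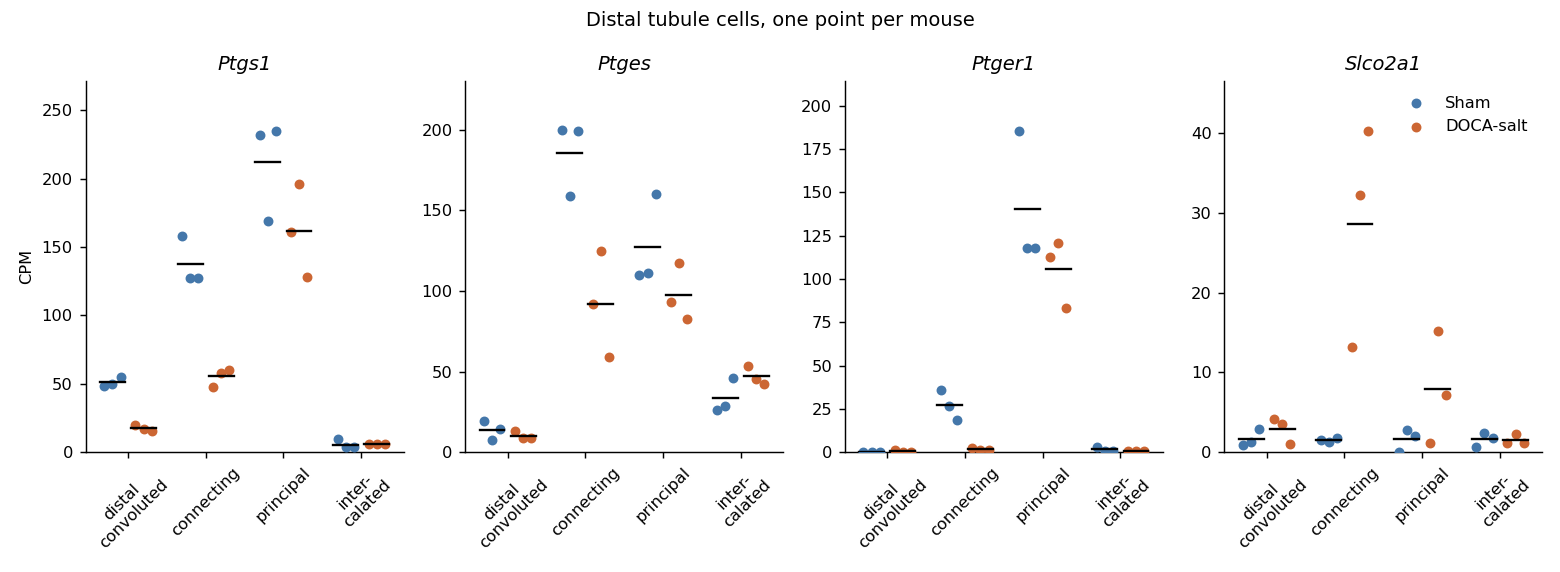
Levels in CPM of the genes of prostaglandin E2 synthesis, uptake and sensing in 4 cell types of the distal nephron, 1 point per mouse, with a line at each group mean (n = 3 per group). In connecting tubule Ptgs1, Ptges and Ptger1 sit lower and Slco2a1 higher in all DOCA-salt mice, whereas in principal cells the groups overlap for Ptgs1 and Ptger1.

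In thick ascending limb, Ptger3 was 433, 474 and 387 CPM in the Sham mice and 498, 621 and 593 CPM in the DOCA-salt mice. The groups did not overlap but the change was not called (log2 0.40 ± 0.13 SE, adjusted p = 0.183), nor was any of the 4 genes tested there, where 0.748% of all genes were higher and 0.847% lower (Ptger3 alone had an unadjusted p under 0.05 in edgeR, and DESeq2 called 0). Ptgs2, known in this segment from the macula densa, was under the filter, with 30 UMIs against 5 (ratio of CPM 0.163, 95% counting interval 0.0493 to 0.423).

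Of those UMIs, 24 and 2 came from a cluster led by Robo2, Nos1, Tenm2 and Pappa2, and Nos1 and Pappa2 are known macula densa genes. This cluster had 20, 18 and 21 cells in the Sham mice and 5, 2 and 4 cells in the DOCA-salt mice. Its Ptgs2 was 15.9, 63.8 and 44.4 CPM in the Sham mice. The 4 macula densa markers of the list (all 4 in the files) summed to 163 to 184 CPM in thick ascending limb of the Sham mice and 17.0 to 48.6 CPM in that of the DOCA-salt mice. Nos1 (log2 -2.76 ± 0.24 SE, adjusted p = 0.000206), Pappa2 (log2 -4.21 ± 0.45 SE, adjusted p = 0.000889) and Robo2 (log2 -2.23 ± 0.27 SE, adjusted p = 0.00210) fell. With 11 cells left in the DOCA-salt mice, a lower level per cell cannot be told apart from fewer such cells.

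In thin limb none of 5 genes was called, where 0.542% of all genes were higher and 0.249% lower (0 at an unadjusted p under 0.05 in edgeR and 0 in DESeq2). Ptger4 was 83.7 ± 0.427 and 74.8 ± 9.27 CPM (adjusted p = 0.759), Slco2a1 148 ± 12.9 and 128 ± 35.7 CPM (adjusted p = 0.759) and Ptger2 4.37 ± 0.370 and 2.82 ± 0.483 CPM from 45 and 24 UMIs (log2 -0.56 ± 0.35 SE, adjusted p = 0.608). For Ptger2 each DOCA-salt mouse was below each Sham mouse. The cluster led by Sorcs3 and Bst1 was 35.9% to 42.9% of thin limb cells in the Sham and 25.0% to 28.4% in the DOCA-salt mice, and its part in these levels was not tested.

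In proximal tubule, Slco2a1 rose by a small step. It was 6.8, 6.9 and 6.83 CPM in the Sham mice and 10.0, 11.7 and 9.22 CPM in the DOCA-salt mice (1.44-fold, log2 0.53 ± 0.13 SE, adjusted p = 0.0427). It was 1 of 8 genes tested, where 4.94% of all genes were higher and 2.24% lower. Ptger4 (log2 0.76, adjusted p = 0.0803) and Ptgis (log2 0.99, adjusted p = 0.173) were not called. The remaining genes tested had log2 changes from -0.40 to 0.14 and were not called. The call did not hold under 6 of 13 other settings. These were leaving out any 1 mouse other than Sham replicate 2 (adjusted p 0.0785 to 0.143) and replicate number as a block (0.161). In the cluster led by Slc7a13 and Kap the log2 change was 0.82 (adjusted p = 0.0448, 2.89% of genes higher), and in that led by Kap and Cndp2 it was -0.04. The cluster led by Cela1 and Gsta2 was 16.1% to 21.3% of these cells in the Sham and 25.5% to 34.4% in the DOCA-salt mice. With finer clustering, a cluster led by Fgg and Cfi had 6, 9 and 9 cells in the Sham and 191, 279 and 325 in the DOCA-salt mice. The part of this mix in the call was not tested.

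Injured tubule cells, marked by Havcr1 and Sox9 among others, had 2 of 5 genes called, both lower, where 3.59% of all genes were lower and 1.95% higher. Hpgd was 9.74, 20.7 and 22.8 CPM in the Sham mice and 4.99, 5.10 and 5.65 CPM in the DOCA-salt mice (log2 -1.83 ± 0.33 SE, adjusted p = 0.00470). Ptger4 was 19.5, 20.7 and 12.1 CPM and 3.38, 5.24 and 4.31 CPM (log2 -1.89 ± 0.37 SE, adjusted p = 0.00822). The Sham values rest on 33 and 28 UMIs from 20, 40 and 58 cells.

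In these cells 20 urothelial markers summed to 322 to 600 CPM in the Sham and 56.6 to 86.7 CPM in the DOCA-salt mice, and 16 thin limb markers to 1093 to 1338 and 644 to 714 CPM. Of 17 immediate early and dissociation genes 7 were lower in the same cells and 0 higher, Nr4a1 (log2 -2.04) and Ier3 (-1.37) among them, with a sum of 6818 to 9706 CPM in the Sham and 5281 to 6325 CPM in the DOCA-salt mice. The part of these markers and genes in both calls was not tested. With finer clustering neither gene was called (adjusted p = 0.147 for Hpgd and 0.104 for Ptger4), nor was Hpgd without Sham replicate 3 (0.0779) or Ptger4 without Sham replicate 2 (0.0510). Slco2a1 was 31.7 ± 9.0 and 30.4 ± 8.85 CPM (adjusted p = 0.986).

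Endothelial cells had 4 of 6 genes called. Ptgs1 rose, and Ptgs2, Ptger4 and Slco2a1 fell, where 5.34% of all 12477 genes tested were higher and 3.69% lower. Both cyclooxygenases thus moved, in opposite directions.

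Ptgs1 in endothelial cells was 53.9, 40.5 and 42.9 CPM in the Sham mice and 92.5, 110 and 85.5 CPM in the DOCA-salt mice (2.12-fold, log2 1.08 ± 0.15 SE, adjusted p = 0.00140). Ptgs2 was 4.43, 8.17 and 8.16 CPM and 2.52, 1.19 and 1.52 CPM, from 66 and 28 UMIs (3.96-fold lower, log2 -1.99 ± 0.39 SE, adjusted p = 0.00972). For both genes the groups did not overlap. The call for Ptgs2 was lost without doublet removal (adjusted p = 0.105) and without Sham replicate 3 (adjusted p = 0.0521). Without doublet removal the cells were clustered anew, and endothelial cells then included a cluster led by Ccl21a and Mmrn1. It had 14, 12 and 14 cells in the Sham and 57, 619 and 117 in the DOCA-salt mice. In the main clustering, a cluster of 691 cells led by Rpgrip1, 567 of them from DOCA-salt replicate 2, stayed unnamed. The part of this in the lost call was not tested.

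Slco2a1 was 145, 172 and 241 CPM in the Sham mice and 98.8, 72.7 and 52.4 CPM in the DOCA-salt mice (2.48-fold lower, log2 -1.31 ± 0.24 SE, adjusted p = 0.00699). Ptger4 was 23.5, 24.9 and 24.2 CPM and 15.7, 9.68 and 11.8 CPM (1.95-fold lower, log2 -0.96 ± 0.20 SE, adjusted p = 0.0135). Each DOCA-salt mouse was below each Sham mouse in both. The call for Ptger4 was lost without doublet removal (adjusted p = 0.143), without Sham replicate 3 (0.0521), without DOCA-salt replicate 3 (0.0595) and with replicate number as a block (0.0529). In the setting without doublet removal, endothelial cells again included the cluster led by Ccl21a and Mmrn1. Hpgd was 227, 79.6 and 184 CPM and 113, 128 and 48.4 CPM, with overlap (adjusted p = 0.260).

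The mix of endothelial clusters differed as well. The cluster led by Plvap and Kdr, genes of capillary endothelium, was 40.4% to 54.3% of endothelial cells in the Sham and 61.2% to 68.4% in the DOCA-salt mice. The cluster led by Epha6 and Nebl, with Sox17 of arterial endothelium, was 17.8% to 26.2% and 6.51% to 12.2%, and that led by Slc14a1 and Cldn5 was 15.3% to 20.4% and 7.62% to 12.7%. The sum of 17 immediate early and dissociation genes in endothelial cells was 23415 to 28355 and 17969 to 23736 CPM, and its part in the Ptgs2 call was not tested.

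Within single clusters, fitted after the data were seen, Slco2a1 was the gene whose call held in more than 1. In the Epha6 and Nebl cluster it was 304, 298 and 385 CPM and 220, 200 and 139 CPM (log2 -0.84 ± 0.18 SE, adjusted p = 0.0373), where 0.39% of genes were lower and 0.357% higher. In the Plvap and Kdr cluster it was 82.0, 72.9 and 102 CPM and 60.9, 53.3 and 35.3 CPM (log2 -0.79 ± 0.21 SE, adjusted p = 0.0359), where 3.8% were lower and 3.4% higher. The log2 change was -0.37 (adjusted p = 0.767) in the Slc14a1 and Cldn5 cluster, where 0.112% of genes were lower and 0.0873% higher, and -1.93 (adjusted p = 0.165) in that led by Stmn2 and Icam2, where none was lower and 0.22% higher.

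Ptgs1 in the Plvap and Kdr cluster was 135, 99.2 and 110 CPM in the Sham mice and 142, 144 and 116 CPM in the DOCA-salt mice, and the groups overlapped (log2 0.21 ± 0.15 SE, adjusted p = 0.491). In the Epha6 and Nebl cluster its log2 change was -0.40 (adjusted p = 0.771). Most of its endothelial UMIs lay in the Plvap and Kdr cluster (355 and 1562). The part of the cluster mix in the call for Ptgs1 over all endothelial cells was not tested. In the Stmn2 and Icam2 cluster Ptgs1 was 0, 0 and 17.6 CPM and 66.2, 53.6 and 37.7 CPM, from 2 and 17 UMIs, under the filter. Ptgs2 in the Epha6 and Nebl cluster was 12.5, 16.6 and 12.6 CPM and 6.97, 0 and 6.09 CPM (log2 -1.57, adjusted p = 0.223). Ptger4 there was 54.7, 49.9 and 39.6 CPM and 56.6, 44.4 and 60.9 CPM (log2 0.16, adjusted p = 0.841).

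Hpgd was in effect a gene of 1 endothelial cluster. In that led by Slc14a1 and Cldn5 it was 674, 410 and 798 CPM in the Sham mice and 830, 980 and 456 CPM in the DOCA-salt mice, and the groups overlapped. The other 3 clusters held 3 to 21 of its UMIs per group each, against 1626 and 1618 in this one.

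**Figure D5:**
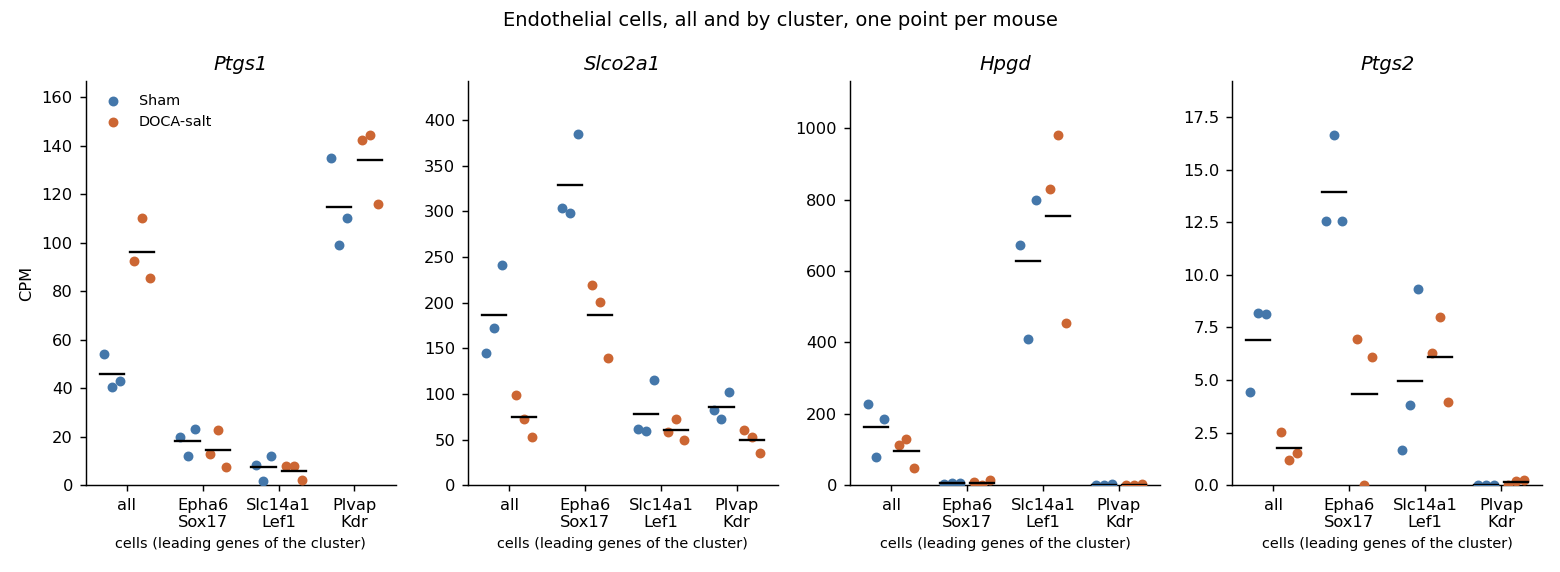
Levels in CPM of Ptgs1, Slco2a1, Hpgd and Ptgs2 in all endothelial cells and in 3 of their 4 clusters, named by leading genes, 1 point per mouse, with a line at each group mean (n = 3 per group). Over all endothelial cells Ptgs1 sits higher and Slco2a1 lower in DOCA-salt mice; within the Plvap and Kdr cluster the groups overlap for Ptgs1 and stay apart for Slco2a1.

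In smooth muscle cells and pericytes, Ptgs2 and Ptger3 rose, 2 of 4 genes tested, where 1.08% of all genes were higher and 1.24% lower. Ptgs2 was 5.08, 1.83 and 7.63 CPM in the Sham mice and 122, 31.6 and 40.7 CPM in the DOCA-salt mice, from 8 against 116 UMIs. DOCA-salt replicate 1 was the highest, and all 3 DOCA-salt mice were above the Sham mice (12.5-fold, log2 3.65 ± 0.60 SE, adjusted p = 0.00247). With 8 UMIs in the Sham mice, Ptgs2 passed the filter on low counts only through the DOCA-salt mice.

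Ptger3, whose EP3 receptor is known in vessels for contraction, was 16.9, 14.6 and 11.5 CPM in the Sham mice and 67.0, 46.7 and 48.1 CPM in the DOCA-salt mice (3.59-fold, log2 1.84 ± 0.32 SE, adjusted p = 0.00330). The groups were well apart. Both calls held under each of 13 other settings for the type as a whole, leaving out each mouse included. Over these settings the log2 change ran from 2.79 to 4.11 for Ptgs2 and from 1.65 to 2.00 for Ptger3. The sum of the immediate early and dissociation genes here was 18041 to 20159 CPM in the Sham and 16033 to 18370 CPM in the DOCA-salt mice.

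The type held 2 clusters. In that led by Rgs5 and Myh11, genes of contractile cells, Ptger3 passed the test as well (log2 1.96 ± 0.39 SE, adjusted p = 0.0157, 0.43% of genes higher and 0.445% lower), and Ptgs2 was 4.4, 2.24 and 0 CPM and 98.8, 17.4 and 42.0 CPM. In that led by Hpse2 and Kcnab1, Ptgs2 was 7.34, 0 and 42.3 CPM and 238, 125 and 35.7 CPM, with overlap. Ptgis, the marker enzyme of these cells, was 166 ± 29.6 and 222 ± 36.6 CPM in the type (log2 0.37, adjusted p = 0.407), and Slco2a1 124 ± 24.9 and 88.4 ± 31.4 CPM (adjusted p = 0.343).

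Fibroblasts were tested with 2 Sham mice (23 and 10 cells) against 3 DOCA-salt mice (216, 296 and 308 cells), since Sham replicate 2 had 4. Ptgis and Slco2a1 rose, 2 of 9 genes tested, where 4.51% of all genes were higher and 4.21% lower. Ptgis was 33.3 and 15.4 CPM in the 2 Sham mice and 135, 140 and 123 CPM in the DOCA-salt mice, from 6 against 1355 UMIs (4.83-fold, log2 2.27 ± 0.47 SE, adjusted p = 0.00234). It was 0 in the 4 cells of Sham replicate 2. With 6 UMIs in the tested Sham mice, Ptgis passed the filter on low counts only through the DOCA-salt mice.

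Fibroblasts of the groups lay largely in different clusters when these were drawn more finely. A cluster led by Sfrp4 and Lum, with Dcn and Pi16, had 23, 3 and 7 cells in the Sham mice and 16, 17 and 20 in the DOCA-salt mice. A cluster with Mgp and the collagen genes Col1a1 and Col1a2 among its leading genes had 0, 1 and 3 cells and 200, 280 and 291 cells. The part of this difference in the calls within fibroblasts was not tested.

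Slco2a1 was 6.67 and 15.4 CPM in the same Sham mice and 94.9, 123 and 115 CPM in the DOCA-salt mice (adjusted p = 0.000643). With 2 UMIs against 1155 the ratio of CPM was 12.2, with a 95% counting interval of 3.36 to 101. In the 4 cells of Sham replicate 2, which entered no test, Slco2a1 was 131 CPM, above the DOCA-salt values. The level of Slco2a1 in Sham fibroblasts is thus barely measured here.

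The other genes of fibroblasts were not called. Hpgd was 60.0 and 185 CPM in the 2 Sham mice and 108 ± 19.6 CPM in the DOCA-salt mice (adjusted p = 0.908), and Ptgs2 73.4 and 0 CPM and 23.1 ± 1.66 CPM (adjusted p = 0.276). Ptgs1 had no UMI in the 2 Sham mice and 218 in the DOCA-salt mice (21.7 ± 1.83 CPM, adjusted p = 0.0569). In the DOCA-salt mice fibroblasts therefore carried the mRNAs of both cyclooxygenases, of prostacyclin synthase, of the carrier and of the breakdown enzyme.

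Macrophages were a larger share of the DOCA-salt kidneys, but none of their 5 tested genes was called, where 3.19% of all genes were higher and 3.12% lower (1 at an unadjusted p under 0.05 in edgeR, Ptgs2, and 0 in DESeq2). Hpgd was 216, 179 and 240 CPM in the Sham mice and 298, 284 and 248 CPM in the DOCA-salt mice (adjusted p = 0.309). Ptger4 was 341 ± 57.9 and 357 ± 10.6 CPM (adjusted p = 0.989), and Ptgs2 18.4, 0 and 12.6 CPM and 31.9, 21.8 and 22.2 CPM (adjusted p = 0.198). For Ptgs2 the DOCA-salt mice were all above the Sham mice, whose values rest on 20 UMIs.

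The macrophage clusters were mixed differently in the groups. That led by Ccl4, Ccl3 and Mmp13 had 98, 38 and 107 cells in the Sham mice and 7, 4 and 14 in the DOCA-salt mice. That led by Ccl7 and Ccl12 had 12, 32 and 6 cells and 169, 288 and 261 cells, and that led by C1qa and Ptpro 19, 45 and 7 cells and 179, 177 and 234 cells. Of 17 immediate early and dissociation genes 3 were higher and 1 lower. The part of these shifts in the levels over all macrophages was not tested.

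In dendritic cells, with none of 2 called by edgeR, at an unadjusted p under 0.05 or by DESeq2, where 0.133% of all genes were higher and 0.0332% lower, Ptger4 was 229 ± 38.6 and 312 ± 43.5 CPM (adjusted p = 0.745) and Ptgs2 52.3 ± 26.7 and 52.7 ± 29.5 CPM (adjusted p = 1.00). In monocytes, with 49 and 44 cells, Ptger4 alone was tested. It was 92.6, 125 and 164 CPM in the Sham mice and 320, 309 and 291 CPM in the DOCA-salt mice, and the groups did not overlap (log2 1.22 ± 0.33 SE, unadjusted p = 0.00296, adjusted p = 0.966), but it was not called by edgeR or DESeq2, and 0% of all 1469 genes tested there were called higher and 0% lower. In neutrophils, 3 to 18 cells per mouse, Ptgs2 had 4 UMIs in the Sham and 34 in the DOCA-salt mice and was under the filter. Ptger2, the EP2 receptor, is given for T or NK cells as well. It was 2.15, 4.51 and 0 CPM in the Sham mice and 21.0, 18.7 and 26.6 CPM in the DOCA-salt mice, from 3 against 42 UMIs (ratio 9.57, 95% counting interval 3.06 to 48.2). It was under the filter on low counts and so was not tested. Genes were to be described in types where they passed that filter, so this value stands outside the rule. Its interval covers counting error only and not the spread between mice. The T or NK clusters were mixed differently in the groups: that led by Tox and Ctla4 had 4, 4 and 4 cells in the Sham and 26, 17 and 44 in the DOCA-salt mice, and that led by Gzma and Xcl1 25, 31 and 11 and 9, 6 and 8. Their part in the values of Ptger2 was not tested. Ptger4, the gene tested in these cells, was 137 ± 27.3 and 178 ± 38.1 CPM and was not called (adjusted p = 0.612), where 0.863% of all genes were higher and 0.74% lower.

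In parietal epithelium, with none of 5 called where 0.806% of all genes were higher and 0.908% lower (1 at an unadjusted p under 0.05 in edgeR, Slco2a1, and 0 in DESeq2), Ptgis was 68.0 ± 13.1 and 73.7 ± 4.11 CPM (adjusted p = 0.861) and Slco2a1 99.0, 99.2 and 143 CPM and 46.6, 60.5 and 73.8 CPM (adjusted p = 0.0754). This type held a small cluster led by Lsp1 and Pdpn whose 23 cells were all from DOCA-salt replicate 2, out of 78 of its cells in the type. In the other cluster, led by Wt1 and Pcp4, Slco2a1 was 81.9 CPM and Ptgis 93.5 CPM in that mouse.

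In cycling cells, with none of 5 called where 3.09% of all genes were higher and 0.653% lower, Ptgs1 was 11.2 ± 9.21 and 34.7 ± 1.90 CPM (adjusted p = 0.0697) and Hpgd 12.4 ± 15.8 and 55.4 ± 8.36 CPM (adjusted p = 0.0943). DESeq2 called both higher, and 4 of the 5 had an unadjusted p under 0.05 in edgeR, where 20.7% of all genes did, Ptger3 higher and Slco2a1 lower besides these. Cycling cells are of several lineages, and their mix differed. A cluster with the endothelial genes Ehd3 and Kdr among its leading genes had 4, 6 and 10 cells in the Sham and 34, 44 and 36 in the DOCA-salt mice, and one with the myeloid gene Lyz2 had 2, 2 and 1 and 20, 15 and 12. The cluster led by Ect2 and Cenpf had 385 and 392 cells in all, with pooled levels of 4.45 and 9.35 CPM for Ptgs1 and 2.22 and 4.68 CPM for Hpgd. The part of the mix in the values over all cycling cells was not tested.

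The pathway around these genes was read from a list of 24 further genes, of which 23 were in the files and 20 were tested in the whole kidney. Ptgds, Hpgds, Pla2g4a, Ptgir and Ptgfrn rose, so 5 of 20 were higher, where 11.5% of all genes were, and none was lower in edgeR (2 at an unadjusted p under 0.05, as were 14% of all genes), where 5.69% of all genes were. DESeq2 called 6 higher, with the thromboxane receptor gene Tbxa2r besides these (log2 1.01, adjusted p = 0.100 in edgeR), and 2 lower, Ptgr1 and Ptgr2. By role these were 1 of 5 phospholipases A2, 2 of 8 other synthases, none of 2 prostaglandin reductases, 1 of 3 other receptors, and 1 of 2 carriers or receptor partners. The median log2 change of the 20 was 0.10.

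Ptgds, the lipocalin-type prostaglandin D synthase, was 7.63, 10.0 and 12.9 CPM in the Sham mice and 53.5, 80.9 and 86.6 CPM in the DOCA-salt mice (log2 2.73 ± 0.24 SE, adjusted p = 0.000496). It also rose in 7 cell types, among them proximal tubule (log2 3.39 ± 0.29 SE), cycling cells (3.35 ± 0.71), principal cells (2.97 ± 0.39) and thin limb (2.18 ± 0.25). Injured tubule cells held it at 326 CPM in the Sham and 365 CPM in the DOCA-salt mice, and whether RNA free in the suspension from these cells had a part in the rises elsewhere was not tested.

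Hpgds, the hematopoietic prostaglandin D synthase, was 5.41, 5.26 and 5.63 CPM and 10.5, 16.8 and 18.2 CPM (log2 1.35 ± 0.19 SE, adjusted p = 0.00319), with most of its UMIs from macrophages, where it was 350 and 331 CPM. Pla2g4a, the cytosolic phospholipase that frees arachidonic acid, was 10.5, 11.8 and 13.3 CPM and 17.0, 21 and 24 CPM (log2 0.68 ± 0.14 SE, adjusted p = 0.0156). Ptgir, the prostacyclin receptor, had 29 and 162 UMIs (log2 2.09 ± 0.45 SE, adjusted p = 0.0159), and 115 of the latter were in fibroblasts. Ptgfrn, a partner of the prostaglandin F receptor, rose too (log2 1.21 ± 0.17 SE, adjusted p = 0.00295), as it did within distal convoluted tubule (1.94 ± 0.58, adjusted p = 0.0495) and principal cells (0.85 ± 0.23, adjusted p = 0.0356). The call for Pla2g4a was lost without Sham replicate 1 (adjusted p = 0.0656) or DOCA-salt replicate 3 (0.0626), and that for Ptgir without Sham replicate 1 (0.0709), DOCA-salt replicate 2 (0.0507) or DOCA-salt replicate 3 (0.0546).

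Within cell types Pla2g4a was called in 4. It fell in connecting tubule (log2 -0.96 ± 0.25 SE, adjusted p = 0.0123) and in endothelial cells (-1.16 ± 0.24, adjusted p = 0.0125), and it rose in smooth muscle cells and pericytes (1.67 ± 0.35, adjusted p = 0.0140) and in fibroblasts (2.88 ± 0.46, adjusted p = 0.000128). In connecting tubule, the prostaglandin F receptor gene Ptgfr fell too (-0.77 ± 0.17, adjusted p = 0.00532), and Abcc4, which exports prostaglandins, rose from 47.9, 43.2 and 54.3 CPM to 95.7, 134 and 137 CPM (1.13 ± 0.19, adjusted p = 0.000545).

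In endothelial cells the thromboxane synthase Tbxas1 fell (log2 -1.23 ± 0.23 SE, adjusted p = 0.00777), as did Akr1b3 (-0.98 ± 0.23, adjusted p = 0.0236), an aldose reductase that can make prostaglandin F2α, and Akr1b3 rose in principal cells (1.3 ± 0.27, adjusted p = 0.0102). In injured tubule cells Hpgds (-2.03 ± 0.27, adjusted p = 0.000446) and the reductase Ptgr1 (-1.05 ± 0.29, adjusted p = 0.0471) fell. Hpgds rose in cycling cells (3.49 ± 0.47, adjusted p = 0.00982), where the cluster with Lyz2 was larger in the DOCA-salt mice and its part was not tested. Cbr1, a carbonyl reductase, rose in proximal tubule (0.72 ± 0.16, adjusted p = 0.0280). The thromboxane receptor Tbxa2r fell in fibroblasts (-2.51 ± 0.60, adjusted p = 0.00768), where the Sham values of 40.0 and 77.0 CPM come from 33 cells.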

How the data were processed

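Each sample was 1 mouse kidney suspension sequenced as a 10x 3′ v3.1 library. The authors' deposited values are raw UMI counts per gene and barcode, filtered to cell barcodes, made with Cell Ranger (9.0.0 in the submitters' processing notes, 8.0.1 in the file header) on GRCm39, and not normalized. The submitters also list Seurat 4.0.0 and R 4.0.3. The files held 76774 barcodes in all and 93172739 to 137819127 UMIs per mouse. Barcodes with at least 170 genes, 500 UMIs and at most 50% mitochondrial and 5% hemoglobin UMIs were kept (60561), and 4931 were removed as the highest Scrublet doublet scores (scanpy 1.11.5, at an expected 0.8% per 1000 barcodes).

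Cells were clustered from 2000 variable genes and 30 principal components by Leiden (leidenalg 0.10.2, resolution 1) into 64 clusters. Clusters were named from marker lists of 21 classes, with at least 3 markers, and the members, pathway and immediate early genes were left out of clustering. UMI counts were summed per mouse and type, for mice with at least 10 cells and types with at least 2 such mice per group. The sums were tested in edgeR 4.0.16 (R 4.3.3, filterByExpr, TMM, quasi-likelihood F test, Benjamini-Hochberg over all genes of a fit, threshold 0.05). The SE is the log2 change divided by the root of F. Alternatives were DESeq2 1.42.0, other filters and clusterings, and leaving out each mouse. The scripts were tested on simulated data. Members and lists were chosen with earlier results of these data known. Every member was described, pathway genes were named where they passed the threshold, and for each member the 3 genes most like it were given among those reaching 5 CPM. Numbered mice were not paired in the labels, and p-values measure the spread between these mice. Counting intervals are exact and cover counting error only. Of the 33696 gene IDs, 33185 were found in GENCODE vM39. There is 1 library per mouse and no label names a sequencing batch. One further gene was left out and is not reported here.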

Additional observations from a re-analysis of the deposited data

Results flagged for a closer look

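The change with DOCA-salt was compared between pairs of cell types in 1 fit per pair, with each mouse as a block (edgeR quasi-likelihood F test, adjusted over all genes of the fit). In 15 pairs of types 125 such tests were made of the genes, and 24 differences in 5 of the genes passed the threshold, where 6.39% of the tests of all genes in the same fits did. Values are the log2 change in the first type minus that in the second.

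Ptgs2, the inducible cyclooxygenase, is listed for its change in endothelium and thick ascending limb, which lay below that in 3 other types. The change in endothelial cells was lower than in proximal tubule (difference 3.21 ± 0.75 SE for proximal tubule minus endothelium, adjusted p = 0.0115), principal cells (3.60 for principal cells minus endothelium) and macrophages (-3.19 for endothelium minus macrophages). That in thick ascending limb was lower than in proximal tubule (3.88 for proximal tubule minus thick ascending limb), principal cells (-4.27) and macrophages (-3.75), each as thick ascending limb minus the other type for these last 2. The counts are small, with 30 and 5 UMIs in thick ascending limb, 8 and 19 in proximal tubule and 15 and 41 in principal cells. In each of these types Ptgs2 was under the filter on low counts and was not tested in the type alone. The differences that use them therefore do not show a change of Ptgs2 within any of them.

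Ptgs1, the constitutive enzyme, changed more toward higher values in endothelium than in proximal tubule (-1.05 for proximal tubule minus endothelium), thick ascending limb (-1.82), principal cells (-1.46 ± 0.14 SE, adjusted p = 4.61e-07) or macrophages (1.12 for endothelium minus macrophages). In thick ascending limb Ptgs1 was under the filter on low counts and was not tested in that type. The differences from fibroblasts, -9.87 for thick ascending limb and -8.91 for principal cells, rest on 0 UMIs in the 2 Sham mice with fibroblasts, so their size depends on the prior count.

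Slco2a1, the carrier, was apart in endothelium, where it fell. The difference was 1.84 ± 0.19 SE for proximal tubule (adjusted p = 9.91e-06), 1.07 for thick ascending limb and 3.69 for principal cells, each minus endothelium, and -4.85 for endothelium minus fibroblasts. It was -2.63 for thick ascending limb minus principal cells, and -3.06 and -3.51 for proximal tubule and thick ascending limb minus fibroblasts. The fibroblast values rest on 2 Sham UMIs. In principal cells Slco2a1 was under the filter on low counts and was not tested in that type. The differences that use principal cells therefore do not show a change of Slco2a1 in them.

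For Ptger4 the difference from endothelium was 1.74 (proximal tubule), 1.39 (principal cells) and, as endothelium minus macrophages, -1.11. Those for Hpgd were 2.17 for thick ascending limb minus endothelium and -1.23 for endothelium minus macrophages, where the thick ascending limb had 8 and 22 UMIs. In thick ascending limb Hpgd was under the filter on low counts and was not tested in that type. The mix of endothelial clusters differed between the groups, and its part in these differences was not tested.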

How the results depend on the processing

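The labels number the mice in both groups and name no pairing. Deviations from the group mean had correlations of -0.02, -0.41 and -0.04 between mice of equal number. Between mice of unequal number they ran from -0.24 to 0.26. With so few mice these values cannot exclude a shared day or batch. With replicate number as a block 3 genes were higher and 1 lower in the whole kidney, 8 and 8 calls were made within types, and 5 and 0 pathway genes passed. Of 25 called values, 14 were called under every setting given here that could be run, single clusters apart. Over 319 recomputed values 291 kept call and direction, 26 lost the call and 2 turned.

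Without fibroblasts and immune cells 0 genes were higher in the whole kidney in place of 3, pathway genes higher went from 5 to 2, and the log2 changes of Ptger4 (-0.036) and Pla2g4a (-0.20) turned. DESeq2, a mitochondrial limit of 20% and no filter on low counts each gave 2 genes lower in place of 1. For pathway genes lower, 0 in edgeR, DESeq2 gave 2 and the mitochondrial limit 1. Within types, calls higher went from 7 to 12 without doublet removal and 17 with no filter, which also gave 13 lower in place of 9. The 24 differences between types became 14 with the mitochondrial limit of 20% and 14 without doublet removal. Without doublet removal the cells were also clustered anew, so the makeup of the types differed as well as the cells kept. Leaving out each mouse gave 2 to 4 genes higher and 1 to 2 lower in the whole kidney, 4 to 8 higher (4 without Sham replicate 1) and 6 to 9 lower within types, and 3 to 6 higher and 0 to 2 lower among pathway genes. Fibroblasts were not fitted without Sham replicate 1 or 3, since 1 Sham mouse would be left, below the minimum of 2.

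Single clusters, fitted after the data were seen, gave 15 values, of which 4 kept the call, 8 lost it and 3 turned: Ptger4 (0.16) and Ptgs1 (-0.40) in the Epha6 and Nebl endothelium, and Slco2a1 (-0.043) in the proximal tubule cluster led by Kap and Cndp2. The cause of these shifts was not tested. With 3 mice a group and some values on fewer than 50 UMIs, small changes of rare genes were not detectable at this depth.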
